A study of Mus musculus with 5 samples.

Results

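The elastic fiber genes described here are elastin, the 5 lysyl oxidases and 4 glycoproteins that help to assemble the fiber. They are Eln, Lox, Loxl1, Loxl2, Loxl3, Loxl4, Fbln5, Efemp1, Efemp2 and Emilin1, taken by name. All 10 were found among the 56941 gene identifiers of the count table, and all 10 were among the 19713 genes tested. RNA was measured in iridocorneal angle tissue, the ring between iris and cornea through which aqueous humor leaves the eye, from untreated mice 12 months old. The 3 DBA/2J pools came from the inbred strain that carries a mutant Gpnmb allele with a premature stop codon and develops pigmentary glaucoma. The 2 Gpnmb+ pools came from DBA/2J-Gpnmb+/SjJ mice, the matched strain with the functional Gpnmb allele. Mice of both strains carry the b allele of Tyrp1. The mice were male and female, and each pool was described as 3 mice, although the library names list 3 animals for DBA/2J pools and 2 for Gpnmb+ pools. Each pool is treated as 1 sample, so differences between the mice inside a pool are not seen.

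Elastic fibers give tissue its recoil. Tropoelastin, the product of Eln, is secreted, gathered on the assembly glycoproteins, laid down on a scaffold of fibrillin microfibrils and then cross-linked through its lysines. The cross-links are made by lysyl oxidases, copper enzymes that also cross-link fibrillar collagens. In the eye such fibers run through the trabecular meshwork and around Schlemm's canal, the outflow path in the angle. LOXL1 is known as a susceptibility gene of human pseudoexfoliation glaucoma, in which fibrillar material collects in the front of the eye.

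The lysyl oxidases share the short coding stretch that binds copper, and its letters show how close the members of the family are. The stretch of 33 bases in each canonical transcript of GRCm39 is printed 5′ to 3′ for the Lox-like genes, with the 4 histidine codons in capitals. Loxl1 is on the minus strand, with the stretch split over chr9:58201642-58201664 and chr9:58201003-58201012. Loxl2 is on the plus strand, at chr14:69919765-69919787 and chr14:69926477-69926486. Loxl3 is on the plus strand, at chr6:83026976-83026998 and chr6:83027097-83027106. Loxl4 is on the minus strand, at chr19:42588316-42588338 and chr19:42587246-42587255.
Loxl1: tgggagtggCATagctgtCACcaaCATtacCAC
Loxl2: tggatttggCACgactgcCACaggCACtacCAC
Loxl3: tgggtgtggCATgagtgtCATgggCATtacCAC
Loxl4: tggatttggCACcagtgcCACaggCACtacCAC
In all 5 genes an intron interrupted the stretch after base 23. Loxl2 and Loxl4 had 31 of the 33 bases in common, and Lox and Loxl1 had 32. Every other pair had 21 to 25. The letters therefore put Lox with Loxl1 and Loxl2 with Loxl4.

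The shared runs were short beside the reads, which were 100 bases long. Between the canonical transcripts of any 2 lysyl oxidases the longest identical run was 12 to 32 bases, and between any 2 of Fbln5, Efemp1 and Efemp2 it was 14 to 21 bases. No read lying within such a transcript could therefore match 2 of these genes end to end. Loxl2 differed in another way. Of the 100-base windows of its canonical transcript, 59.3% also occurred in a transcript of another gene. The unprocessed pseudogene Gm21451, also on chromosome 14, held 43.1% of all Loxl2 windows, and R3hcc1, which overlaps Loxl2 on the opposite strand, held 16.2% of them. Gm21451 had 0 counts in all 5 pools, and the deposited counts were of uniquely aligned reads, so the Loxl2 count rests on part of its transcript and is uncertain. Loxl3 shared 23.6% of its windows with Htra2 on the opposite strand, and the strand used in counting was not given in the sources used here. The share was at most 3.49% for the other 8 genes.

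The 200 bases before the canonical transcript start were read from GRCm39 for all 10 genes and searched on both strands for 5 motifs. The promoters of Loxl1 and Efemp1 are shown because these genes had the smallest adjusted p-values of the 10 and carried different motifs. They are printed 5′ to 3′ on the strand of the gene with the motif matches in capitals. Loxl1 lies on the minus strand, and its 200 bases are chr9:58220496-58220695. Efemp1 lies on the plus strand, and its bases are chr11:28802950-28803149.
Loxl1 promoter: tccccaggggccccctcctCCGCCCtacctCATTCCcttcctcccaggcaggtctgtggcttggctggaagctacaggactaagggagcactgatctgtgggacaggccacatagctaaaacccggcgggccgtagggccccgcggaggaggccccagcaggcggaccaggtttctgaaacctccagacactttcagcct
Efemp1 promoter: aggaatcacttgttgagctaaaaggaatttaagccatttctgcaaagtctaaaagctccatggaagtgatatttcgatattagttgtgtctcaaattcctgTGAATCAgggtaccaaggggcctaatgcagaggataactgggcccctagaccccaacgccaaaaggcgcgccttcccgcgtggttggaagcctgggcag
The capitals in the Loxl1 promoter mark a GC box (GGGCGG, read on the other strand) that begins 181 bases before the start and a TEAD motif (CATTCC) that begins 170 bases before it. Those in the Efemp1 promoter mark TGAATCA, which begins 99 bases before the start. It matches the AP-1 motif as searched here (TGANTCA), in which N stands for any base. Among the 15917 promoters of the same length that were read, the GC box occurred in 43.5%, the TEAD motif in 9.19% and the AP-1 motif in 4.18%. Of the 10 genes, 6 had a GC box, 2 had the TEAD motif (Loxl1 and Loxl3), and only Efemp1 had the AP-1 motif. None of the 10 had the TATA box letters TATAAA, present in 6.43% of all promoters, or the E-box letters CACGTG, present in 6.24%.

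Total counts ran from 43900661 to 49837758 per pool. Gpnmb, which checks the labels, was at 43.6 to 52.0 CPM, a count scaled to the size of its library and to a common total, in DBA/2J and at 2260 to 2555 CPM in Gpnmb+. All 8 trabecular meshwork markers were detected in every pool, Myoc and Chi3l1 (formerly Chil1) among them. Although mice of both sexes were described for both strains, the 4 Y-linked genes summed to 66.2 to 199 CPM in DBA/2J and to at most 0.102 CPM in Gpnmb+. Xist was at 0 to 54.2 CPM in DBA/2J and at 155 to 187 CPM in Gpnmb+. The 2 genotypes thus differed in sex-linked RNA, and sex and genotype cannot be told apart in any comparison below.

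Elastin RNA was higher on average in DBA/2J, but its pools overlapped. Eln lies on chromosome 5 from 134731445 to 134776322 on the minus strand. It was at 112, 65.7 and 143 CPM in the DBA/2J pools, given in the order of their numbers as throughout, and at 79.6 and 54.2 CPM in the Gpnmb+ pools. DBA/2J pool 2 fell between the Gpnmb+ pools, and the other DBA/2J pools lay above both. The log2 fold change was 0.67 with a standard error of 0.34 and a 95% interval from -0.15 to 1.50, and positive values mean higher in DBA/2J here and below. The adjusted p was 0.398 in the quasi-likelihood test of edgeR, adjusted over all genes by the Benjamini-Hochberg method. Eln varied more between pools of the same genotype than any other of the 10 genes, with a biological coefficient of variation of 26.4% where the trend for genes of its level gave 13.7%.

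The lysyl oxidases all had a higher mean in DBA/2J (a log2 fold change above 0), and Lox, Loxl1 and Loxl2 were higher in all DBA/2J pools than in either Gpnmb+ pool, as were 17.3% of all genes tested. Lox, the founding member of the family, was at 207, 100 and 167 CPM in DBA/2J and at 72.4 and 57.6 CPM in Gpnmb+. It lies on chromosome 18 from 52649136 to 52663110 (minus strand). Its groups did not overlap, with DBA/2J pool 2 nearest to the Gpnmb+ pools. Its log2 fold change of 1.28 (standard error 0.31, 95% interval 0.53 to 2.04) was the largest of the 10. It did not pass the threshold in edgeR, with an adjusted p of 0.134.

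Loxl1, the family member known for cross-linking elastin in adult tissue, was at 209, 181 and 217 CPM in DBA/2J and at 122 and 104 CPM in Gpnmb+. The gene spans bases 58195014 to 58220495 of chromosome 9 (minus strand). The groups lay well apart, and the pools within each genotype differed by at most 1.20-fold. Its log2 fold change was 0.84 (standard error 0.12, 95% interval 0.54 to 1.14). The adjusted p of 0.0513 in edgeR missed the threshold of 0.05 narrowly.

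Loxl2, known for cross-linking type IV collagen of basement membranes, was at 39.1, 30.6 and 38.9 CPM in DBA/2J and at 26.0 and 19.7 CPM in Gpnmb+. It lies on chromosome 14 from 69846209 to 69933283 (plus strand). The groups did not overlap, within the limit on its count given above. The log2 fold change was 0.66 (standard error 0.17, 95% interval 0.25 to 1.08, adjusted p = 0.150 in edgeR). Loxl3, which is needed for palate and spine development, was at 21.9 to 28.8 CPM in DBA/2J and at 16.7 and 25.7 CPM in Gpnmb+, with a log2 fold change of 0.30 ± 0.22 (SE). Loxl4 was at 9.46 to 13.3 CPM in DBA/2J and at 8.53 and 10.5 CPM in Gpnmb+, with a log2 fold change of 0.31 ± 0.19 (SE). Pools of the genotypes overlapped for both genes, and neither passed the test in edgeR (adjusted p = 0.551 and 0.494). Loxl3 lies on chromosome 6 from 83011152 to 83029543 (plus strand), 34.0 megabases from Gpnmb, and Loxl4 on chromosome 19 from 42580711 to 42601252 (minus strand).

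**Figure D1:**
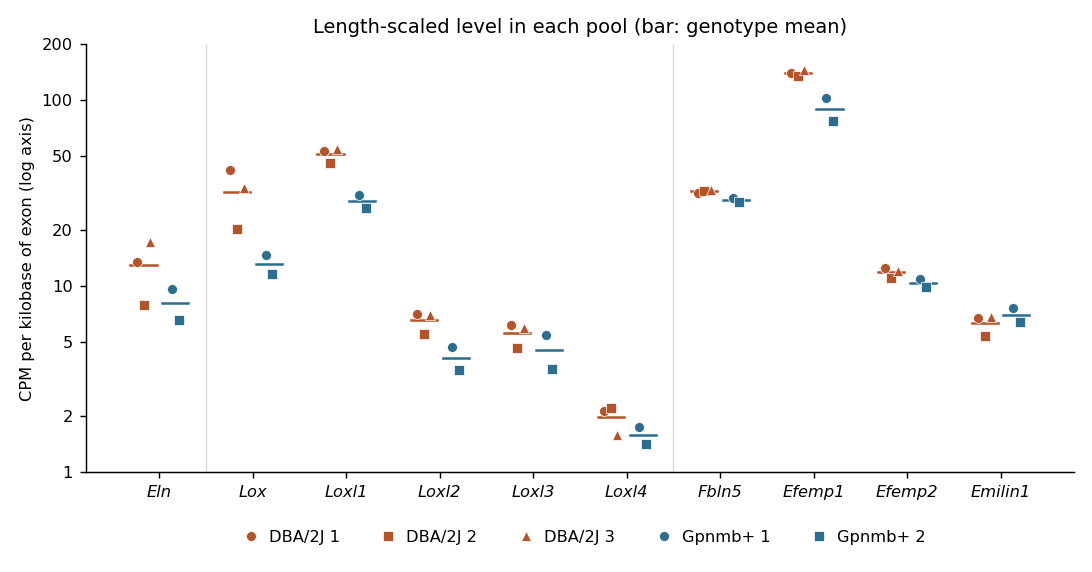
Level of each gene in each pool as CPM per kilobase of exon, on a log axis, with DBA/2J pools in brown, Gpnmb+ pools in blue and a bar at each genotype mean. Efemp1 is the most abundant and Loxl4 the least abundant in both genotypes, and the brown and blue points separate for Lox, Loxl1, Loxl2, Fbln5, Efemp1 and Efemp2.

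Of the assembly glycoproteins, Efemp1 differed most. Efemp1 encodes fibulin-3, a secreted glycoprotein of the extracellular matrix, and lies on chromosome 11 from 28803150 to 28876825 (plus strand). It was at 635, 610 and 660 CPM in DBA/2J and at 466 and 349 CPM in Gpnmb+. The groups did not overlap, and the DBA/2J pools lay within 1.08-fold of each other while the Gpnmb+ pools differed 1.33-fold. The log2 fold change was 0.64 (standard error 0.14, 95% interval 0.29 to 0.99), and the adjusted p was 0.115 in edgeR.

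Fbln5 and Efemp2, which encode fibulin-5 and fibulin-4, bring lysyl oxidases to tropoelastin, and loss of either disrupts elastic fibers in mice. Fbln5 lies on chromosome 12 from 101712556 to 101785429 (minus strand) and Efemp2 on chromosome 19 from 5523975 to 5532545 (plus strand). Fbln5 was at 231, 238 and 239 CPM in DBA/2J and at 217 and 207 CPM in Gpnmb+. Efemp2 was at 67.9, 60.6 and 65.7 CPM in DBA/2J and at 59.2 and 54.1 CPM in Gpnmb+. Both were higher in every DBA/2J pool, by little. The log2 fold changes were 0.16 (95% interval -0.04 to 0.35) and 0.19 (95% interval -0.03 to 0.42). Their adjusted p-values were 0.403 and 0.379 in edgeR, and both intervals ended below the log2 value of a 1.5-fold change. Fbln5 was the steadiest of the 10 genes, with a biological coefficient of variation of 9.83%.

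Emilin1, a glycoprotein at the border of elastin and microfibrils, was the only gene of the 10 with a lower mean in DBA/2J. It was at 37.7, 30.2 and 38.2 CPM in DBA/2J and at 42.6 and 35.8 CPM in Gpnmb+. It lies on chromosome 5 from 31070717 to 31078622 (plus strand). The pools overlapped, and the log2 fold change was -0.15 (95% interval -0.49 to 0.19, adjusted p = 0.657 in edgeR).

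**Figure D2:**
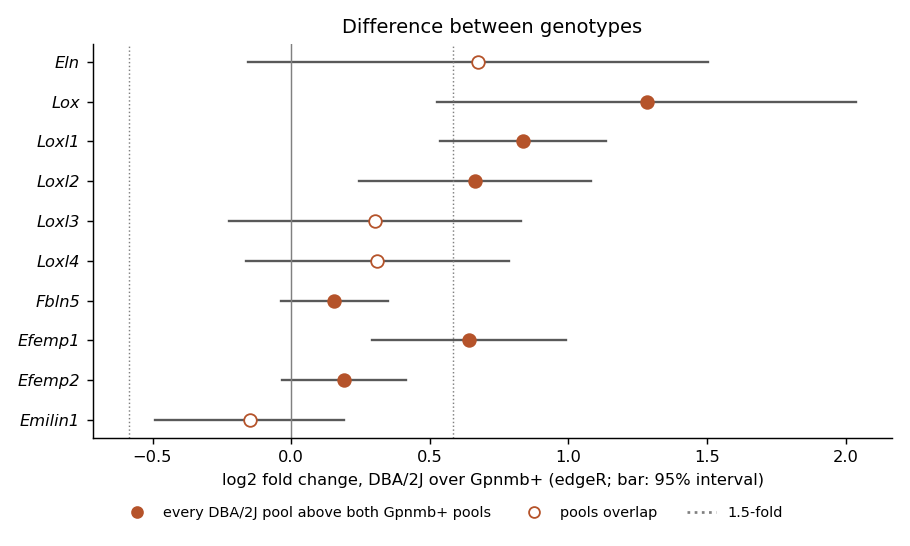
Log2 fold change of each gene between DBA/2J and Gpnmb+ with its 95% interval from edgeR. Filled points mark the 6 genes whose DBA/2J pools all lie above both Gpnmb+ pools, open points mark overlapping pools, and the dotted lines mark a 1.5-fold change.

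Counted together, 9 of the 10 genes had a higher mean in DBA/2J. Their median log2 fold change was 0.47, where that of all genes tested was -0.02. With Gpnmb+ pool 2 left out the median of the 10 was 0.29, and with Gpnmb+ pool 1 left out it was 0.76. By edgeR, with an adjusted p of at most 0.05 and at least a 1.5-fold change, 0 of the 10 were called, and 0.796% of all genes tested were. With the unadjusted p in place of the adjusted one, edgeR passed 4 of the 10 and 8.67% of all genes. DESeq2's Wald test at the adjusted threshold called the same 4, Lox, Loxl1, Loxl2 and Efemp1, where it called 4.7% of all genes. Its adjusted p-values for these genes were 0.000806, 6.02e-07, 0.0153 and 0.00141. By limma-voom 1 was called, Loxl1, with an adjusted p of 0.0472, where limma-voom called 0.964% of all genes. The 6 genes with separated pools stand beside 17.3% of all genes in which every DBA/2J pool lay above both Gpnmb+ pools. In bulk tissue, more cells that make these RNAs and more RNA per cell cannot be told apart.

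Markers of other tissue moved with genotype in the same libraries. All 8 markers of nonpigmented ciliary epithelium, among them Optc, Six6 and Zic1, were higher in every DBA/2J pool, none was at 0 in any pool, and their sum was 1112 to 1347 CPM in DBA/2J and 246 to 448 CPM in Gpnmb+. The iris and ciliary body were taken off at dissection according to the labels, while the study's methods describe some of both as still attached to the ring. All 9 skeletal muscle markers had a higher mean in DBA/2J, with sums of 288 to 691 CPM against 178 to 285 CPM. Of 9 smooth muscle markers 8 had a lower mean, with sums of 982 to 1084 CPM in DBA/2J and 1199 to 1426 CPM in Gpnmb+. Of 8 keratocyte markers 6 had a lower mean, with sums of 4569 to 5958 CPM and 6704 to 6734 CPM. The summed trabecular meshwork markers were at 6573 to 7160 CPM in DBA/2J and at 5685 to 6351 CPM in Gpnmb+, although 6 of the 8 had a lower mean. Chi3l1 alone was at 2992 to 4088 CPM in DBA/2J and at 1184 and 1879 CPM in Gpnmb+. Of the 8 trabecular meshwork markers, 4 were separated with DBA/2J lower and 2 with DBA/2J higher. Of all 19713 genes tested, 3381 were separated with DBA/2J lower and 3419 with DBA/2J higher. EdgeR called 3 of the trabecular meshwork markers, Tfap2b and Edn3 lower and Cyp1b1 higher, where it called 0.796% of all genes. It also called 2 ciliary epithelium markers, Col9a1 and Six6, both higher, and 1 keratocyte marker, Chst5, lower. Sums of endothelial, fibroblast, pigment cell, corneal epithelial and lens markers overlapped between the genotypes, although some single markers were separated. Of 8 endothelial markers 4 were separated with DBA/2J lower and 0 with DBA/2J higher. The counts were 3 and 1 of 8 pigment cell markers, and 2 and 0 of 8 corneal epithelial markers. Krt12 of the cornea was at 254, 116 and 9.44 CPM in DBA/2J and at 1702 and 554 CPM in Gpnmb+. Among pigment cell markers edgeR called Slc45a2, lower in DBA/2J. The part of these differences in the levels of the elastic fiber genes was not tested.

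Compared per length, as CPM per kilobase of exon, the order of the genes was similar in both genotypes. Efemp1 was the most abundant, at 140 ± 5.52 in DBA/2J (mean ± SD over 3 pools) and 90.0 ± 18.3 in Gpnmb+ (mean ± SD over 2 pools). Loxl1 followed in DBA/2J at 51.1 ± 4.82, above Fbln5 at 32.3 ± 0.552 and Lox at 32.1 ± 10.98, whose ranges overlapped. In Gpnmb+, Fbln5 at 29.04 ± 1.02 and Loxl1 at 28.6 ± 3.26 were not separated, and Lox was below both at 13.2 ± 2.12. Loxl1 thus stood above Fbln5 in every DBA/2J pool, and the ranges of the same genes overlapped in Gpnmb+. Eln was at 12.9 ± 4.71 and 8.10 ± 2.18, on a level with Efemp2 in DBA/2J and with Emilin1 in Gpnmb+. Loxl4 was lowest, at 1.98 ± 0.345 and 1.59 ± 0.239. These levels divide by the union of all annotated exons, which for Eln is 8260 bases where its longest transcript is 4005. Divided by the longest transcript instead, Efemp1 was still highest and Loxl4 lowest in every pool, and Eln was at 13.5 to 35.7 CPM per kilobase. Eln was then above Emilin1 in both Gpnmb+ pools, at 19.9 and 13.5 against 9.47 and 7.96. Its range then overlapped that of Efemp2 in both genotypes. Loxl1 was above Eln in every pool with either length. Lox was above Eln in every pool with the exon union, but below it in DBA/2J pool 3 and both Gpnmb+ pools with the longest transcript, so the order of Lox and Eln depended on the choice of length.

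The lysyl oxidase RNAs were summed per length to describe the family as a whole. The sum was 110, 78.4 and 103 CPM per kilobase for DBA/2J and 57.6 and 46.6 for Gpnmb+. Every DBA/2J pool was above both Gpnmb+ pools, with means of 97.3 ± 16.8 (SD, n = 3) and 52.1 ± 7.79 (SD, n = 2), a ratio of 1.87. The exact two-sided permutation test gave p = 0.2, the smallest value that 3 pools against 2 allow.

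Loxl1 made up most of the family sum in nearly every pool, and its share did not separate the genotypes. The share of Loxl1 was 48.0, 58.2 and 53.1% in DBA/2J and 53.7 and 56.5% in Gpnmb+ (exact permutation p = 0.8). The share of Lox was 38.1, 25.9 and 32.8% in DBA/2J and 25.5 and 25.1% in Gpnmb+, so that DBA/2J pool 2 lay close to both Gpnmb+ pools. Lox and Loxl1 together took 84.1 to 86.1% of the sum in DBA/2J and 79.2 and 81.6% in Gpnmb+. The shares of Loxl2, Loxl3 and Loxl4 were lower in all DBA/2J pools than in either Gpnmb+ pool, with means of 6.77, 5.78 and 2.10% against 7.92, 8.62 and 3.06%. Each of these separations reached p = 0.2 in the exact permutation test. Shares of 1 sum depend on each other, so these are not separate results. The levels of Loxl2, Loxl3 and Loxl4 themselves had higher means in DBA/2J. The limit on the Loxl2 count given above also holds for the sum and the shares.

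**Figure D3:**
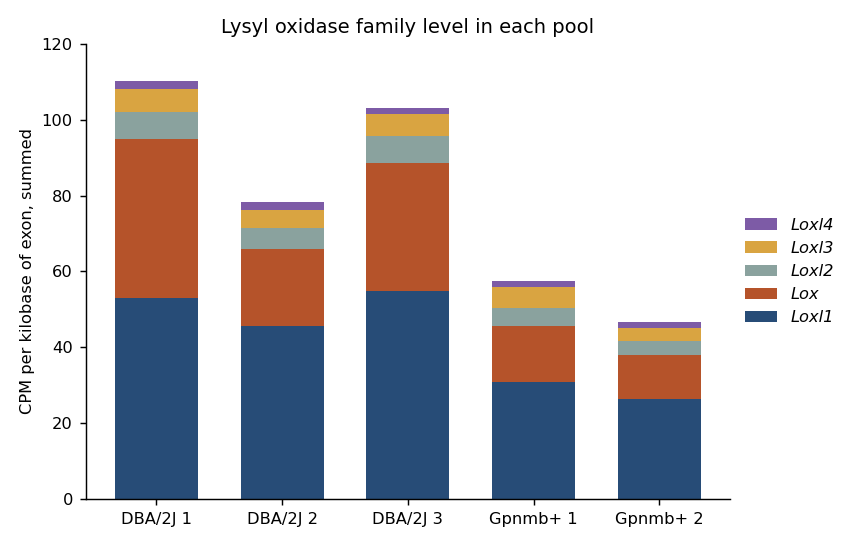
Stacked bars of the length-scaled levels of the 5 lysyl oxidases in each pool, as CPM per kilobase of exon, with Loxl1 at the bottom and Loxl4 at the top. The bars reach 78.4 to 110 in the DBA/2J pools and 46.6 to 57.6 in the Gpnmb+ pools, and most of each bar is Loxl1 and Lox.

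Ratios set the levels of the members side by side within each pool. The ratio of Efemp1 to Fbln5, per length, was 4.42, 4.14 and 4.45 in DBA/2J and 3.46 and 2.72 in Gpnmb+, without overlap (exact permutation p = 0.2). The ratio of the summed lysyl oxidases to Eln was 8.17, 9.85 and 5.96 in DBA/2J and 5.97 and 7.10 in Gpnmb+, and here the pools overlapped (exact permutation p = 0.6). With the longest transcripts as lengths the last ratio was 3.24 to 5.39 in DBA/2J and 3.26 and 3.88 in Gpnmb+, again with overlap. The ratio of Lox to Loxl1 was 0.794, 0.445 and 0.618 in DBA/2J and 0.474 and 0.444 in Gpnmb+, which also overlapped (exact permutation p = 0.4).

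The genes also tended to be high or low in the same pools of a genotype. All 10 were higher in Gpnmb+ pool 1 than in Gpnmb+ pool 2, by a median of 0.32 on the log2 scale, where the median over all genes was -0.00061. In DBA/2J, pool 2 was below pool 1 for 8 of the 10 and below pool 3 for 9 of the 10, with median log2 ratios of 0.27 and 0.30. The largest gaps within a genotype were in Lox and Eln, which differed 2.07-fold and 2.18-fold between DBA/2J pools. Gpnmb+ pool 2 held more photoreceptor RNA than Gpnmb+ pool 1, with the 6 markers summing to 1894 and 349 CPM. Macrophage markers were also higher in Gpnmb+ pool 2, at 3840 against 2990 CPM. Gpnmb+ pool 1 was higher for nonpigmented ciliary epithelium, at 448 against 246 CPM, and skeletal muscle, at 285 against 178 CPM. Xist was at 13.4, 0 and 54.2 CPM in the DBA/2J pools. The part of these differences in the gaps was not tested.

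The fold changes depended on the single pools accordingly. With Gpnmb+ pool 2 left out, Loxl3 had a log2 fold change of 0.03, and with Gpnmb+ pool 1 left out it had 0.65. Over the 5 fits that each left out 1 pool, Eln ran from 0.41 to 0.98, Lox from 1.04 to 1.53, Loxl1 from 0.72 to 0.96 and Efemp1 from 0.45 to 0.87. Loxl2 ran from 0.48 to 0.88, Loxl4 from 0.17 to 0.47, Fbln5 from 0.12 to 0.19 and Efemp2 from 0.13 to 0.26, each lowest without Gpnmb+ pool 2 and highest without Gpnmb+ pool 1. The range for Emilin1 was -0.27 to -0.02. The sign of all 10 log2 fold changes was kept in each of these fits, and edgeR called 0 of the 10 in each.

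**Figure D4:**
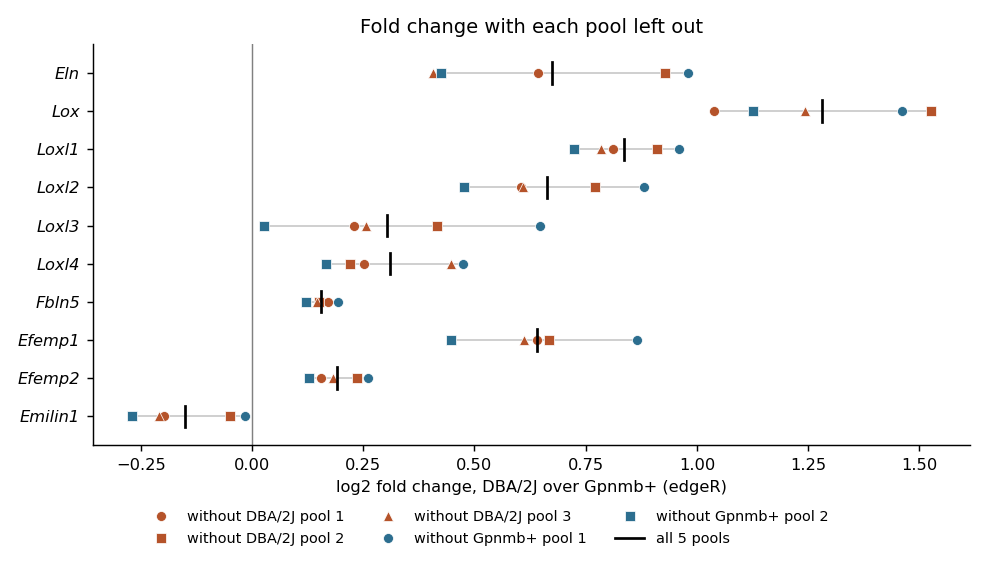
Log2 fold change of each gene in edgeR with all 5 pools (black bars) and with each DBA/2J pool (brown) or Gpnmb+ pool (blue) left out. The blue points lie at both ends of the range for 8 of the 10 genes, and no point crosses 0.

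The wider pathway was described through 8 lists of genes set by their known roles. Of 74 listed genes 72 were tested, and Mmp7 and Elane were too low. The mean was higher in DBA/2J for 58 of the 72, and the median log2 fold change was 0.26. By edgeR 4 were called, Ltbp2, Mfap4, Ltbp3 and Mmp12, all higher in DBA/2J, and DESeq2 called 17. Over all genes tested, edgeR called 0.796% and DESeq2 4.7%. The groups were separated with DBA/2J higher in 33 genes and with DBA/2J lower in 4. Of all 19713 genes tested, 3419 (17.3%) were separated with DBA/2J higher and 3381 with DBA/2J lower. The count of 4 calls fell to 0 without DBA/2J pool 1 or DBA/2J pool 2 and to 1 without DBA/2J pool 3. Calls over all genes tested fell in the same fits, from 157 with all pools to 6, 1 and 17 in turn. Over the 5 fits that each left out 1 pool, the log2 fold change ran from 2.00 to 2.30 for Ltbp2 and from 1.18 to 1.62 for Mfap4. It ran from 0.63 to 0.85 for Ltbp3 and from 0.78 to 0.94 for Mmp12.

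The microfibril genes held 3 of the 4 calls. Microfibrils are the scaffold of fibrillins and their partners on which elastin is laid. Ltbp2, which encodes a fibrillin-binding protein and is linked to human congenital glaucoma, was at 497, 459 and 438 CPM in DBA/2J and at 116 and 94.5 CPM in Gpnmb+. It rose by a log2 fold change of 2.14 ± 0.13 (SE; adjusted p = 0.0145 in edgeR). Mfap4, a microfibril protein that binds elastin and collagen, rose from 243 and 180 CPM in Gpnmb+ to 523.3, 549 and 584 CPM in DBA/2J, with a log2 fold change of 1.38 ± 0.15 (SE; adjusted p = 0.0310 in edgeR). Ltbp3, which anchors latent TGF-beta in the matrix, was at 315, 305 and 329 CPM in DBA/2J and at 205 and 176 CPM in Gpnmb+, with a log2 fold change of 0.73 ± 0.10 (SE; adjusted p = 0.0479 in edgeR). The call of Ltbp3 was lost with any 1 pool left out, at adjusted p-values of 0.0557 to 0.186 in edgeR. That of Mfap4 was kept only without Gpnmb+ pool 1, with adjusted p-values of 0.0220 to 0.117 over the 5 fits. That of Ltbp2 was lost without DBA/2J pool 1, DBA/2J pool 2 or Gpnmb+ pool 2, over a range of 0.0194 to 0.0775 in edgeR.

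All 3 called microfibril genes were separated between the genotypes. Over the 14 microfibril genes, 11 had a higher mean in DBA/2J and 8 of these were separated, 2 were separated in the other direction, and the median log2 fold change was 0.59. By DESeq2, 7 of the 14 were called, as were 4.7% of all genes tested. Over all genes, 3419 of 19713 were separated with DBA/2J higher and 3381 with DBA/2J lower. Ltbp4, which binds fibulin-5 and is needed for elastin assembly, had overlapping pools and a log2 fold change of 0.02 (95% interval -0.24 to 0.27). Ltbp4 was singled out after its value was seen.

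**Figure D5:**
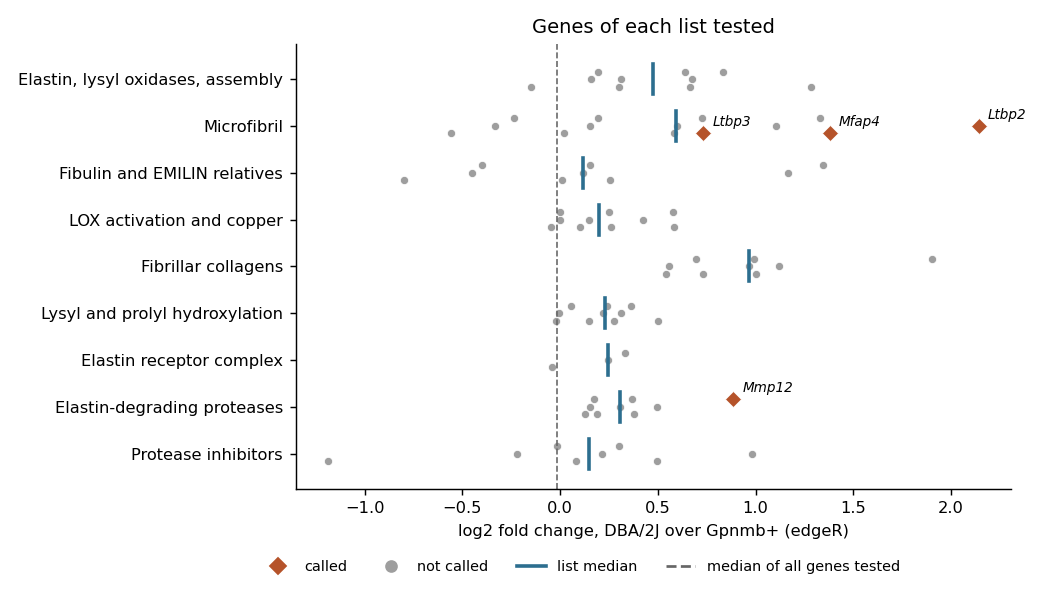
Log2 fold change of every tested gene in each list, with called genes as brown diamonds, others as grey points, the list median as a blue bar and the median of all genes tested as a dashed line. The 4 called genes lie in the microfibril list (Ltbp2, Mfap4 and Ltbp3) and among the proteases (Mmp12), and the fibrillar collagens have the highest median.

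The fibrillar collagens, the other substrates of lysyl oxidases, had the highest median log2 fold change of the lists, 0.96. All 9 had a higher mean in DBA/2J, 7 were separated, 0 were called by edgeR and 7 were called by DESeq2. At an unadjusted p of at most 0.05 with the fold minimum, edgeR also passed 7. Over all genes tested, 17.3% were separated with DBA/2J higher, and 4.7% were called by DESeq2. EdgeR called 0.796% of them and passed 8.67% at the unadjusted p. Col2a1, the main collagen of cartilage and vitreous, was at 49.2, 39.6 and 48.5 CPM in DBA/2J and at 15.9 and 8.53 CPM in Gpnmb+, with a log2 fold change of 1.90 ± 0.28 (SE; adjusted p = 0.0513 in edgeR). Col3a1, found with type I collagen in soft tissue, was at 1515, 920 and 1558 CPM in DBA/2J and at 809 and 414 CPM in Gpnmb+ (log2 fold change 1.12 ± 0.36, adjusted p = 0.221 in edgeR). Col11a1, a minor fibrillar collagen, had a log2 fold change of 1.00 ± 0.18 (adjusted p = 0.0768 in edgeR). All 3 were lowest without Gpnmb+ pool 2 and highest without Gpnmb+ pool 1, at log2 fold changes of 1.52 and 2.43 for Col2a1, 0.72 and 1.69 for Col3a1, and 0.75 and 1.31 for Col11a1. Without Gpnmb+ pool 1, edgeR called Col2a1 (adjusted p = 0.0213) and Col11a1 (adjusted p = 0.0347). Markers of cartilage-type matrix, which include Col2a1, were higher in mean for 6 of 8 tested, with sums of 213 to 237 CPM in DBA/2J and 162 to 171 CPM in Gpnmb+. Their part in the collagen values was not tested.

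Among the relatives of the fibulins and EMILINs, 6 of 9 had a higher mean in DBA/2J, the median log2 fold change was 0.12, and edgeR made 0 calls. DESeq2 called 2, where it called 4.7% of all genes. With unadjusted p-values and the fold minimum 2 passed in edgeR, where 8.67% of all genes did. Fbln2 and Fbln1, which encode matrix fibulins of basement membranes and connective tissue, had log2 fold changes of 1.34 ± 0.25 and 1.16 ± 0.23 (SE; adjusted p = 0.0858 and 0.0877 in edgeR). Fbln1 was at 1110, 1044 and 1103 CPM in DBA/2J and at 609 and 359 CPM in Gpnmb+. Its log2 fold change fell to 0.83 with Gpnmb+ pool 2 left out and reached 1.60 with Gpnmb+ pool 1 left out, where edgeR called it (adjusted p = 0.0225). Hmcn1, a long member of the same superfamily, was separated in the other direction, with a log2 fold change of -0.40 ± 0.11 (SE; adjusted p = 0.158 in edgeR).

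Genes that supply copper to lysyl oxidases or activate the proenzymes made up the next list. Of 10 genes 8 had a higher mean in DBA/2J, and 4 were separated with DBA/2J higher, as were 17.3% of all genes tested. The median log2 fold change was 0.20, with 0 calls by edgeR or DESeq2. With unadjusted p-values and the fold minimum, edgeR passed 0. Over all genes tested, edgeR called 0.796% and passed 8.67% at the unadjusted p, and DESeq2 called 4.7%. Bmp1, the protease that cleaves the LOX propeptide, was at 74.5, 49.3 and 69.6 CPM in DBA/2J and at 46.0 and 40.0 CPM in Gpnmb+, a log2 fold change of 0.58 ± 0.19 (SE; adjusted p = 0.227 in edgeR). Its relative Tll1 had 0.42 ± 0.12 (adjusted p = 0.178), and Atp7b, a copper-transporting ATPase, had 0.58 ± 0.22 (adjusted p = 0.285) in the same fit.

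Lysyl and prolyl hydroxylation and collagen folding, which prepare collagen for cross-linking, gave a median log2 fold change of 0.23 over 10 genes. The mean was higher in DBA/2J for 8, 0 were called by edgeR or DESeq2, and 0 passed in edgeR with unadjusted p-values and the fold minimum. Over all genes tested, edgeR called 0.796% and passed 8.67% at the unadjusted p, and DESeq2 called 4.7%. In 3 of the 10 the groups were separated with DBA/2J higher, as in 17.3% of all genes tested. The separated genes were Fkbp10, a folding factor that supports lysyl hydroxylase 2, with 0.50 ± 0.13, Serpinh1, the collagen chaperone HSP47, with 0.36 ± 0.15, and Crtap, a subunit of the prolyl 3-hydroxylation complex, with 0.15 ± 0.08 (log2 fold change ± SE). Their adjusted p-values in edgeR were 0.152, 0.305 and 0.427.

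On the side of breakdown, 9 elastin-degrading proteases were tested and all 9 had a higher mean in DBA/2J. The median log2 fold change was 0.31. Mmp12, the macrophage elastase, was the only one called by edgeR and the only one called by DESeq2. Over all genes tested these tools called 0.796% and 4.7%. It was at 206, 167 and 171 CPM in DBA/2J and at 99.7 and 96.7 CPM in Gpnmb+, and rose by a log2 fold change of 0.89 ± 0.12 (SE; adjusted p = 0.0440 in edgeR). The call was lost with any 1 pool left out, at adjusted p-values of 0.0936 to 0.190 in edgeR. Macrophage markers had a higher mean for 7 of 8, but their sums overlapped, at 3130 to 4230 CPM in DBA/2J and 2990 to 3840 CPM in Gpnmb+, and their part in the Mmp12 value was not tested.

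Over the 8 protease inhibitors the median log2 fold change was 0.15, with 5 higher in mean, 3 lower and 0 called by edgeR or DESeq2. None passed in edgeR with unadjusted p-values and the fold minimum, and the same held for the elastin receptor genes. Over all genes tested, edgeR called 0.796% and passed 8.67% at the unadjusted p, and DESeq2 called 4.7%. Of the 8 inhibitors, 3 were separated with DBA/2J higher and 1 with DBA/2J lower. Of all 19713 genes tested, 3419 (17.3%) were separated with DBA/2J higher and 3381 with DBA/2J lower. Timp4, an inhibitor of matrix metalloproteinases, was separated with DBA/2J lower, at 20 to 72 counts per DBA/2J pool and 91 and 137 counts per Gpnmb+ pool (log2 fold change -1.19 ± 0.53, adjusted p = 0.351 in edgeR). A2m, the plasma protease inhibitor alpha-2-macroglobulin, and Serpinb1a, an inhibitor of neutrophil elastase, were among those separated with DBA/2J higher. They had 0.50 ± 0.20 and 0.30 ± 0.16 (adjusted p = 0.310 and 0.430 in edgeR). Of the 3 genes of the elastin receptor complex, which binds elastin fragments at the cell surface, Ctsa and Glb1 were separated with DBA/2J higher, with log2 fold changes of 0.24 ± 0.09 and 0.33 ± 0.13, and 0 were called by either tool (adjusted p = 0.270 and 0.290 in edgeR).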

How the data were processed

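RNA-seq of 5 iridocorneal pools was analysed, 3 of DBA/2J and 2 of Gpnmb+. The deposited table holds raw, unnormalized counts, made by the authors from reads that had been trimmed (fastp) and placed uniquely on GRCm39 by STAR. Whether counting used strand is not given in the sources used here. Columns of the table were matched to pools by library name, and 0 columns were left unused.

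Gene names, exons and canonical transcripts came from GENCODE M39 on GRCm39, which named 56323 of 56941 identifiers. A gene was tested if any pool (at least 1) held 10 counts or more. Libraries were scaled by TMM and genotypes compared with edgeR 4.0.16 (quasi-likelihood test, R 4.3.3, no covariate). Calls required a Benjamini-Hochberg adjusted p of at most 0.05 over 19713 genes and at least a 1.5-fold change. Standard errors are the size of the log2 fold change over the root of F, and 95% intervals use the total degrees of freedom. Length-scaled levels are TMM-scaled CPM per kilobase of the union of exons. Sums and shares were compared by exact two-sided permutation over pools. DESeq2 1.42.0 and limma 3.58.1 (voom) were alternatives, and Python 3.11.15 with scipy 1.17.1 made the tables. Tested on simulated counts for this comparison over 19192 genes, edgeR recovered 130 of 200 genes changed 2-fold, with 3 false calls. The simulation gave every gene the variation of the trend for its level and changed only genes with higher counts. Eln and Lox varied more than that trend, at 26.4% against 13.7% and 23.7% against 13.6%. The recovery may therefore not hold for such genes. The edgeR p-values set the difference between genotypes against the variation between pools, which is drawn toward the trend for each gene. The permutation p-values count arrangements of the pools and cannot fall below 0.2.

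The 10 genes, the pathway lists and the marker lists were chosen with earlier results of these data known. In each wider list the genes named were every called gene or, with no call, up to 3 with the largest absolute log2 fold change among those with separated pools. Ltbp4 is an exception. Other alternatives were DESeq2 size factors in edgeR, filterByExpr, no count filter, unadjusted p-values, no fold minimum, the replicate number as a block, other gene lengths and each pool left out in turn. Protein data were not analysed here.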

Additional observations from a re-analysis of the deposited data

How the results depend on the processing

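Every log2 fold change of the 10 genes kept its sign under every alternative run, and 11 of 130 comparisons moved a gene past the threshold. The alternatives with unadjusted p-values and with no fold minimum reuse the fold changes of the main fit, so their signs could not change. Genes called overall numbered 157. They numbered 927 with DESeq2, 190 with limma-voom, 360 without a count filter, 1710 at unadjusted p-values, and 1 to 217 with each pool left out. Of the 10 genes, 0 were called with all pools. DESeq2 called 4 of them, limma-voom 1, the fit without a count filter 1, unadjusted p-values 4, and fits with each pool left out 0. The single gene was Loxl1 each time, with adjusted p-values of 0.0472 in limma-voom and 0.0222 in edgeR without the filter. In the wider lists the 4 calls became 17 with DESeq2, 9 without the filter, 17 unadjusted, and 0 to 6 with each pool left out. With the replicate number as a block, edgeR called 220 genes in all, 12 in the wider lists and 1 of the 10, Loxl1 (adjusted p = 0.0384), and Ltbp3 was no longer called (adjusted p = 0.0528). The labels do not say that a number marks shared animals or a shared batch. Deviations of same-numbered pools correlated at r = 0.279 and 0.254 over genes, but there were only 2 pairs, and the deviations of 2 Gpnmb+ pools mirror each other by construction. Where a Gpnmb+ pool was left out, the lone pool was assumed to vary like the others. Left-out pools gave -4.60 to 0.525 percentage points for the difference in the Loxl1 share and 0.74 to 1.05 for that in the log2 lysyl oxidase sum. The causes of these shifts were not tested.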
